A study of Mus musculus with 12 samples.

Results

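The teneurins (Tenm1, Tenm2, Tenm3 and Tenm4), the latrophilins (Adgrl1, Adgrl2 and Adgrl3) and the FLRTs (Flrt1, Flrt2 and Flrt3) were followed in single nuclei of the mouse cortex. The rows of the members were found by gene symbol, and all 10 were present among the 55335 genes of the count tables. Nuclei were profiled by single-nucleus RNA-seq with a massively parallel barcoding kit (ScaleBio) from 12 mice at postnatal day 21. There were 6 wild-type (WT) and 6 heterozygous (Het) mice, with 3 males and 3 females of each genotype, and each mouse gave 1 sample. Het mice carried 1 copy of the Myt1l S710fsX allele, a frameshift in the gene of the neuronal transcription factor MYT1L, on the C57BL/6J background, and WT mice came from the same breeding of a Het and a C57BL/6J parent. All animals of both genotypes had received 2 AAV9 vectors into the ventricles as newborn pups, carrying the hyPB transposase and the H2b-tdT-SRT reporter, and were perfused before the cortex was dissected and frozen. The design asked where these genes are transcribed among cortical cell classes and whether their levels differed between Het and WT.

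Teneurins are large type II transmembrane proteins of neurons that guide the matching of axons with their targets. They bind across the synaptic cleft to latrophilins, which are adhesion G protein-coupled receptors, and FLRTs are leucine-rich repeat proteins that bind the same receptors at a separate site and also bind UNC5 guidance receptors. Complexes of a teneurin, a latrophilin and an FLRT have been studied as organizers of synapse specificity and of the migration of cortical neurons.

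After filtering, 34860 nuclei remained (15100 WT and 19760 Het), with a median of 3180 UMIs per nucleus and between 5358379 and 14833593 UMIs per animal, and no barcode was shared between animals. The filter left out 33586 barcodes that held over 6000 UMIs. Unless stated, levels are thus those of nuclei at or below that depth. Nuclei were placed in classes by UMIs of marker genes, none of which is a teneurin, latrophilin or FLRT, and 26663 nuclei (76.5%) received a broad class. A class name therefore means nuclei that resemble that type by its markers. Neuronal subclasses were given to 11851 of 23063 neuronal nuclei, of which 1673 (14.1%) lay close to a limit. This share was 27.8% in L6 IT-like and 18.9% in Car3-like nuclei. Markers that the rule of a class did not use were higher in each compared class that had any. In L5 NP-like and Sst-like nuclei none of them was over 2-fold higher, and L5 ET-like, L6 IT-like and Car3-like nuclei had no such markers. Comparisons used 20 classes, namely excitatory-like and inhibitory-like nuclei as a whole and 18 classes that do not overlap (9 excitatory, 5 inhibitory and 4 glial). Myt1l itself was counted at 829 to 939 CPM (counts scaled to the total of the animal and class) in WT and 923 to 1012 CPM in Het over all nuclei (edgeR quasi-likelihood log2 fold change 0.13, Benjamini-Hochberg adjusted p = 0.666). Transcripts of the frameshift allele are counted too, so this level is no check of the labels.

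3 features of the samples bear on the values below. Striatal projection-like nuclei, whose usual place is the striatum, made up 5.47% to 11.9% of inhibitory-like nuclei in 6 WT animals and 9.66% to 18.6% in 6 Het animals. The study also reports more of these neurons in Het cortex and considers carry-over of striatal tissue unlikely. By immunofluorescence it counted more neurons positive for both DARPP32 and NeuN in the deep cortex of Het mice. In 3 animals (WT male 2, Het male 3 and Het female 2) inhibitory-like nuclei were 20.99% to 23.3% of all nuclei, against 15.1% to 17.0% in the other 9. Microglia-like nuclei held transcripts of excitatory neurons: their CPM of Camk4, Nrn1 and Nrgn, neuronal genes that no class rule used, was 69.5%, 45.1% and 49.7% of that in excitatory-like nuclei, and for the gate marker Sv2b it was 16.1%. In OPC-like nuclei (oligodendrocyte precursors) Camk4 stood at 19.4% and Nrgn at 1.98% of the excitatory level.

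In the mm10 build with its GENCODE annotation, the teneurin genes span 616.3 to 1229.3 kb. Tenm1 lies on chromosome X (42527866 to 43429126, minus strand), Tenm2 on chromosome 11 (36006656 to 37235964, minus), Tenm3 on chromosome 8 (48227682 to 48843951, minus) and Tenm4 on chromosome 7 (96171246 to 96911093, plus). Adgrl1 lies on chromosome 8 (83900105 to 83941954, plus), Adgrl2 on chromosome 3 (148815583 to 148990555, minus) and Adgrl3 on chromosome 5 (81020138 to 81825133, plus). The FLRT genes are shorter: Flrt1 on chromosome 19 (7092001 to 7105729, minus), Flrt2 on chromosome 12 (95692226 to 95785215, plus) and Flrt3 on chromosome 2 (140650914 to 140671469, minus). Exons cover 0.93% of the Tenm2 span and 42.8% of the Flrt1 span. Flrt1 sits inside an intron of Macrod1 and Flrt3 inside an intron of Macrod2, each on the opposite strand, and the sources used here do not say whether counting used strand. Over all nuclei Macrod2 was counted at 1901 CPM and Flrt3 at 18.1 CPM, and the part of Macrod2 reads in the Flrt3 level was not tested. Macrod1 was counted at 11.9 CPM.

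Over all nuclei, teneurin transcripts summed to 5135 ± 294 CPM (SD, n = 12 animals), latrophilin transcripts to 1723 ± 112 CPM and FLRT transcripts to 247 ± 29.3 CPM. These family sums are not scaled to gene length. Reads of spliced and unspliced RNA were not separated here, and levels of genes within a family are compared only per kilobase, of gene span and of exon. Tenm2 led the teneurins on both length scales, with 2.63 CPM per kb of gene span and 282 CPM per kb of exon. The order of the latrophilins turned on the scale: Adgrl1 led per kb of gene span (2.39 CPM against 1.80 for Adgrl3 and 1.00 for Adgrl2), while Adgrl3 led per kb of exon (81.6 CPM against 11.6 for Adgrl1 and 12.3 for Adgrl2). Flrt2 led the FLRTs on both scales, with 2.25 CPM per kb of span and 27.1 CPM per kb of exon. Every gene had counts in all 12 animals, from 2110 counts in all for Flrt3 to 376308 for Tenm2.

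Of 1530 member pairs of classes (10 genes in 153 pairs), 677 (44.2%) differed by an exact two-sided sign-flip test of log2(CPM + 1) over animals that hold both classes, at an adjusted p under 0.05 over all genes and pairs, where 17.7% of the tests of all 13044 genes passed. The share differed among members, from 12.4% of pairs for Flrt3 and 17.0% for Flrt1, the genes with fewest counts and shares near or below that of all genes, to 61.4% for Tenm2 and 69.3% for Tenm4. In 260 of the 1530 pairs (17.0%) the animals of the 2 classes did not overlap, where 4.85% of the tests of all genes did not, and Flrt1 gave 1 of the 260 and Flrt3 gave 0. Both shares over all genes take genes with a mean of at least 10 CPM in a class and are not matched to the members in level. The planned test took only classes next to each other and adjusted the p over those 170 tests. By it 0 passed (exact sign-flip test, smallest adjusted p = 0.0664, 23 with an unadjusted p under 0.05). The test of all pairs was chosen after seeing the data, and 8 of these neighbours passed when adjusted over all genes and pairs. Differences between the 18 classes below rest on this test of all pairs. With 12 animals the smallest p of this test is 0.000488, and pairs with L6b-like (8 animals) or DG-like nuclei (9 animals, dentate granule cells of the hippocampus) had less room to pass. Pairs of OPC-like with L6b-like or DG-like nuclei, and of L5 ET-like with L6b-like nuclei, shared 7 animals and could not pass. The smallest p with 7 animals is above 0.00928, an exact sign-flip p at which the adjusted p was already 0.0521.

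**Figure D1:**
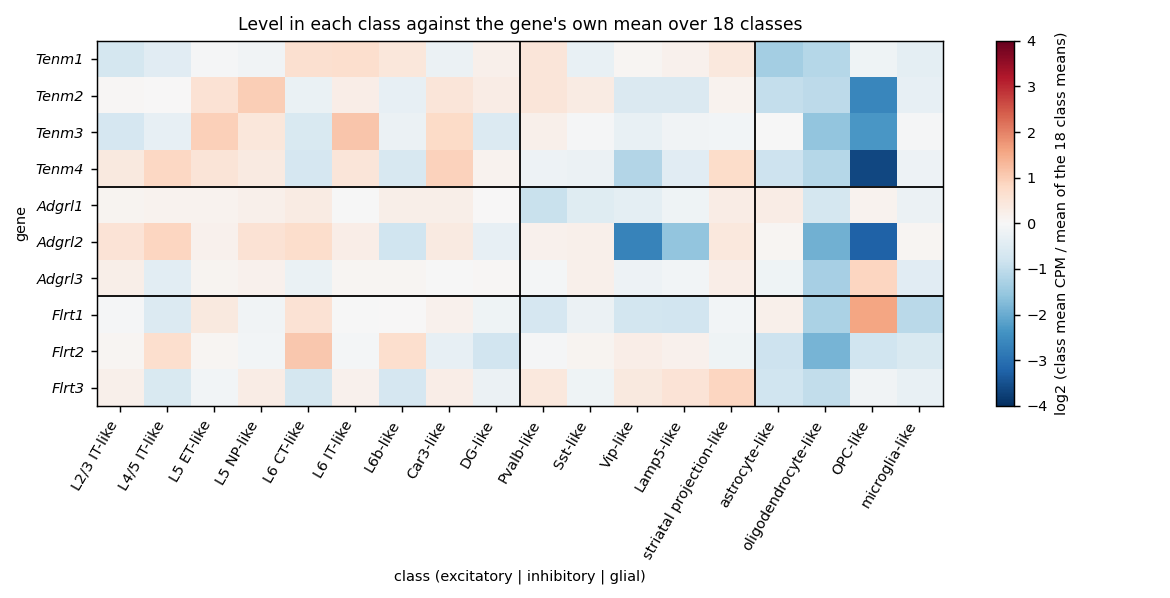
Level of each gene in 18 classes as log2 of the class mean CPM over the gene's own mean of the 18 class means, with excitatory, inhibitory and glial classes separated by lines. OPC-like nuclei stand lowest for Tenm2, Tenm3, Tenm4 and Adgrl2 and highest for Adgrl3 and Flrt1.

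Tenm1, the X-linked teneurin, was highest in layer 6 neurons. L6 IT-like nuclei held 595, 722 and 865 CPM (lowest, median and highest of 12 animals) and L6 CT-like nuclei 621, 680 and 855 CPM. Superficial L2/3 IT-like nuclei held 211, 265 and 337 CPM and so lay wholly below both layer 6 classes (L2/3 IT-like minus L6 CT-like, -1.36 on the log2 scale, exact sign-flip test, adjusted p = 0.00831, lower in 12 of 12 animals). Levels in Pvalb-like (626 ± 130 CPM, n = 12), L6b-like (620 ± 177, n = 8), striatal projection-like (603 ± 128, n = 12) and DG-like nuclei (521 ± 148, n = 9) did not differ from L6 IT-like nuclei at this threshold. Astrocyte-like nuclei were lowest, at 177 ± 87.4 CPM on 147 counts.

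Tenm2, a high-affinity latrophilin ligand, was highest in L5 NP-like neurons, the near-projecting cells of layer 5. The 12 animals held 5281, 5661 and 7211 CPM in this class (lowest, median and highest), and the class differed from each of the 17 others and did not overlap with 15 of them. The nearest class was L5 ET-like (2869, 4195 and 7164 CPM in 10 animals), lower by 0.44 on the log2 scale in all 10 animals that hold both (SD 0.31, exact p = 0.00195, adjusted p = 0.018 over all genes and pairs, 0.0664 over neighbours). L6 CT-like nuclei lay far below, at 2106, 2497 and 2883 CPM (L5 NP-like minus L6 CT-like, 1.25, adjusted p = 0.00831, exact sign-flip test). Among inhibitory classes Pvalb-like (3515, 4005 and 4842 CPM) and Vip-like nuclei (1258, 2039 and 2609 CPM) did not overlap (1.07 higher in Pvalb-like, adjusted p = 0.00831, exact test), and the same held for Pvalb-like against Lamp5-like nuclei (1.10). OPC-like nuclei had 283, 451 and 841 CPM in 10 animals, below every animal of 16 other classes.

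Tenm3, which is known for wiring of visual and hippocampal circuits, was highest in the deep-layer L6 IT-like (868, 1171 and 1551 CPM), L5 ET-like (394, 1133 and 1385 CPM) and Car3-like classes (650, 941 and 1288 CPM). L6 IT-like nuclei differed from 16 of 17 classes, the exception being L5 ET-like. L2/3 IT-like (253, 332 and 443 CPM) and L6 CT-like nuclei (282, 347 and 477 CPM) lay below every animal of the L6 IT-like class (-1.77 and -1.70 on the log2 scale against it, adjusted p = 0.00831 each, exact sign-flip test). Layer 6 was thus not uniform for this gene. In OPC-like nuclei the 10 animals held 34 to 231 CPM on 96 counts in all.

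In inhibitory-like nuclei Tenm3 varied between animals more than the other teneurins. In these nuclei the 12 animals ranged from 430 to 1057 CPM, whereas in excitatory-like nuclei of the same animals they ranged from 525 to 661 CPM. The 3 animals with the larger share of inhibitory-like nuclei held 1010 to 1057 CPM and the other 9 held 430 to 819 CPM. The split was wider in Lamp5-like nuclei, at 904, 1166 and 1428 CPM in these 3 animals against 165 to 403 CPM in the other 9, on 51 to 69 and 26 to 64 nuclei per animal. In Pvalb-like, Sst-like, Vip-like and striatal projection-like nuclei the 3 animals overlapped with the other 9. These 3 animals comprise 1 WT and 2 Het mice. Without them the inhibitory-like mean fell from 724 to 622 CPM for Tenm3 and from 748 to 707 CPM for Tenm4. The mean rose from 123 to 134 CPM for Adgrl2, from 529 to 568 CPM for Tenm1 and from 189 to 200 CPM for Flrt2. The part of the cell make-up of the 3 animals in these levels was not tested.

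Tenm4, which is also known for a role in oligodendrocyte differentiation, was highest in Car3-like (1217, 1373 and 1627 CPM), L4/5 IT-like (1127, 1282 and 1464 CPM) and striatal projection-like nuclei (901, 1216 and 1662 CPM), and neither of the latter differed from Car3-like at the threshold. L6 CT-like nuclei held 355, 448 and 575 CPM, below every animal of the Car3-like and L4/5 IT-like classes (-1.61 against Car3-like and 1.51 higher in L4/5 IT-like, adjusted p = 0.00831 each, exact sign-flip test). Tenm1 thus stood high and Tenm4 low in L6 CT-like nuclei. Among inhibitory classes Vip-like nuclei were lowest (26, 314 and 589 CPM), below every animal of the striatal projection-like class (-2.15, adjusted p = 0.00831, exact test). OPC-like nuclei held 42 counts of Tenm4 in all over 10 animals, 3 of which had none, for a mean of 58.7 ± 62.0 CPM, 5.84% of the excitatory-like level.

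**Figure D2:**
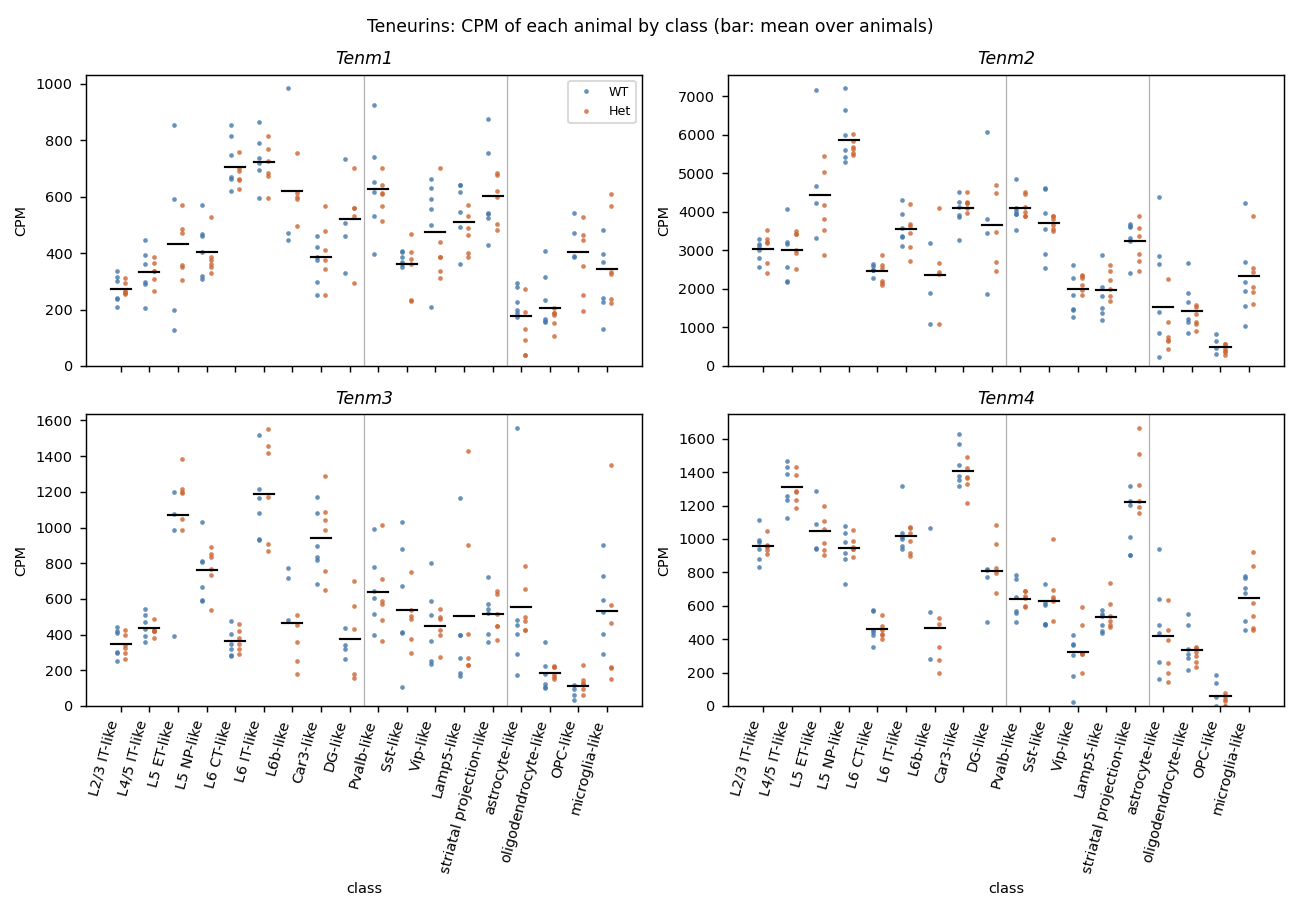
CPM of Tenm1, Tenm2, Tenm3 and Tenm4 in each animal (points, WT and Het in separate colours) and the mean over animals (bars) in 18 classes, on linear axes from 0. Tenm2 in L5 NP-like nuclei sits between 5281 and 7211 CPM, and 3 animals stand above the others for Tenm3 in Lamp5-like nuclei.

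Flrt1, the FLRT with fewest bases of gene span, was counted at low levels throughout. It was highest in OPC-like nuclei, at 13.6, 59.2 and 116 CPM in 10 animals on 52 counts, which is 288% of the excitatory-like mean of 22.1 CPM. This class differed from 10 of 17 others, and its tests against L6b-like and DG-like nuclei could not pass with so few shared animals. Its animals overlapped with those of every class, and 5 of the 10 animals had 3 counts or fewer. L6 CT-like nuclei came next, with 20.8, 30.7 and 47.2 CPM on 297 counts, and oligodendrocyte-like nuclei were lowest at 8.76 ± 3.09 CPM (n = 12). Oligodendrocyte-like minus OPC-like nuclei gave -2.52 on the log2 scale (exact sign-flip test, adjusted p = 0.018, lower in 10 of 10 animals).

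Flrt2, an FLRT known as an UNC5D ligand in the migration of cortical neurons, was highest in L6 CT-like neurons. These corticothalamic-like nuclei held 300, 411 and 592 CPM, differed from 16 of 17 classes (all but L6b-like) and did not overlap with 11. L6 IT-like nuclei of the same layer held 89.8, 197 and 241 CPM (1.19 lower on the log2 scale, adjusted p = 0.00831, exact sign-flip test, 12 of 12 animals). Next to L6 CT-like came L6b-like (312 ± 131 CPM, n = 8) and L4/5 IT-like nuclei (311 ± 60.8 CPM, n = 12), and the 4 glial classes and DG-like nuclei averaged 129.7 CPM or less. Oligodendrocyte-like nuclei were lowest at 53.8 ± 28.4 CPM.

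Flrt3, the FLRT whose binding to latrophilin 3 has been studied at excitatory synapses, reached at most 34.4 ± 11.3 CPM, in striatal projection-like nuclei (14.5, 35.1 and 53.0 CPM). Its host gene Macrod2 was also highest in these nuclei, at 2501 CPM, and the part of its reads in the Flrt3 level there was not tested. L6 CT-like nuclei held 4.27, 12.1 and 17.1 CPM (-1.46 against striatal projection-like nuclei, adjusted p = 0.00831, exact sign-flip test), so Flrt2 was high and Flrt3 low in this class. Only 19 of 153 pairs of classes differed for Flrt3. In 9 of the 18 classes it rested on 44 counts or fewer in all, and in L6b-like nuclei on 5 counts, with 5 of 8 animals at 0.

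Adgrl1 (latrophilin 1, a receptor for the spider toxin that gave the family its name) differed between fewer pairs of classes than the other latrophilins. The highest class was L6 CT-like (92.9, 119 and 160 CPM) and the lowest Pvalb-like (14.4, 52.5 and 104 CPM), a ratio of means of 2.35. L6 CT-like nuclei differed from 7 of 17 classes. In all 42 of 153 pairs differed (27.5%), against 82 for each of the other latrophilins, on 48 to 1111 counts per class.

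Adgrl2 (latrophilin 2) separated neuronal classes most widely among the 10 genes, by 11.7-fold between the highest and lowest neuronal class. L4/5 IT-like nuclei held 202, 281 and 352 CPM and Vip-like nuclei 0, 19.6 and 55.5 CPM on 22 counts (4.01 on the log2(CPM + 1) scale, adjusted p = 0.00831, exact sign-flip test, higher in 12 of 12 animals). Within the inhibitory classes, Pvalb-like (99.1, 176 and 251 CPM) and Sst-like nuclei (127, 164 and 315 CPM) stood above every animal of the Vip-like class (3.31 and 3.32, adjusted p = 0.00831 each). Lamp5-like nuclei were also low, at 11.4, 52.2 and 90.5 CPM. In OPC-like nuclei only 11 counts were seen over 10 animals (16.2 ± 23.6 CPM, 7.64% of the excitatory-like level), and 9 of them had 3 counts or fewer.

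Adgrl3 (latrophilin 3), by contrast, was spread over all neurons and was highest in OPC-like nuclei. These held 2530, 2823 and 3178 CPM in 10 animals, 188% of the excitatory-like mean. They did not overlap with 16 of the 17 other classes, all but striatal projection-like, and differed from 15. The tests against L6b-like (mean 1629 CPM) and DG-like nuclei (mean 1597 CPM) could not pass with so few shared animals. The next class, striatal projection-like nuclei (1444, 1800 and 2865 CPM), was lower by 0.61 on the log2 scale (exact p = 0.00195, adjusted p = 0.018 over all genes and pairs, 0.0664 over neighbours). Oligodendrocyte-like nuclei, the mature cells of that lineage, were lowest at 389, 559 and 1049 CPM and differed from each of the 17 others (-2.39 against OPC-like, adjusted p = 0.018, exact test). Among neuronal classes the span was 1.62-fold, from L4/5 IT-like (951, 1150 and 1394 CPM) to striatal projection-like nuclei. L2/3 IT-like nuclei (1565, 1839 and 2056 CPM) stood above every animal of the L4/5 IT-like class (0.66, adjusted p = 0.00831, exact test).

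**Figure D3:**
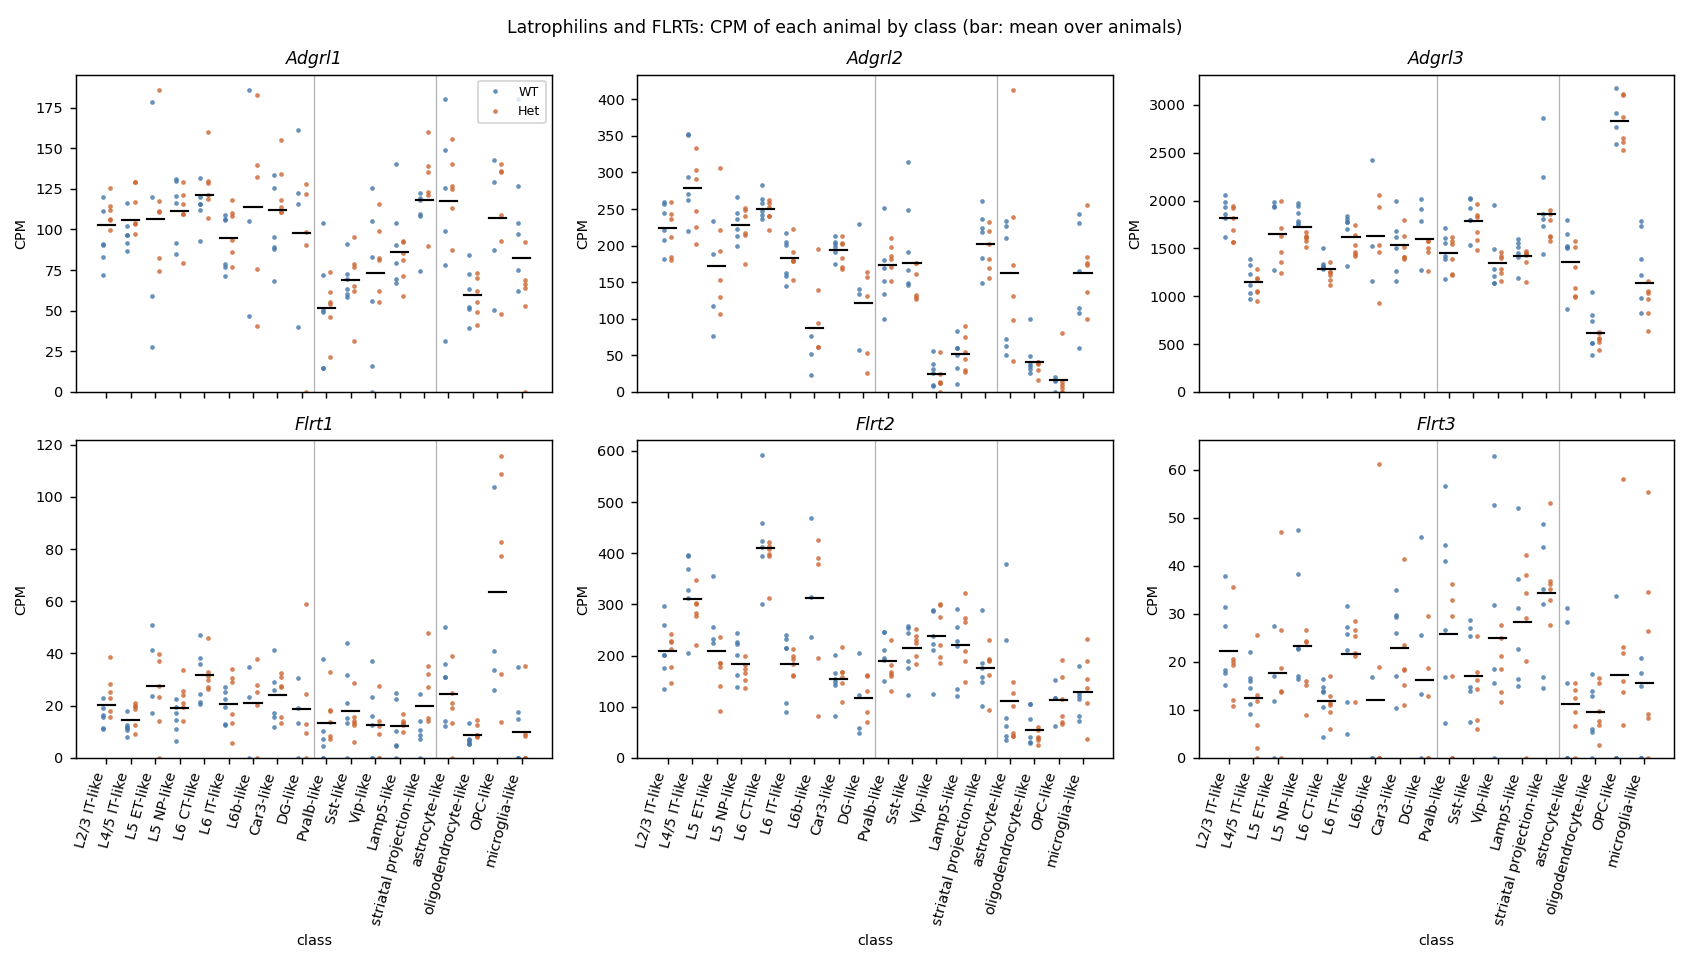
CPM of the 3 latrophilins and 3 FLRTs in each animal (points, WT blue and Het orange) and the mean over animals (bars) in 18 classes, on linear axes from 0. Adgrl3 in OPC-like nuclei sits between 2530 and 3178 CPM, Adgrl2 is near 0 in Vip-like and OPC-like nuclei, and Flrt2 is highest in L6 CT-like nuclei.

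In the other glial classes these genes need the transcripts of excitatory neurons beside them. In microglia-like nuclei the 10 genes stood at 45.4% (Flrt1) to 93.0% (Flrt3) of the excitatory-like level, beside 45.1% to 69.5% for Nrn1, Nrgn and Camk4 there. In oligodendrocyte-like nuclei they stood at 19.1% (Adgrl2) to 57.2% (Flrt3), with these 3 neuronal genes at 23.3% to 28.6%. In astrocyte-like nuclei Flrt1 reached 111% (on 23 counts), Adgrl1 105%, Tenm3 92.7%, Adgrl3 90.4%, Adgrl2 76.8% and Flrt3 66.2% (on 11 counts), while the 3 neuronal genes stood at 26.2% to 33.5%, and Tenm1, Tenm2, Tenm4 and Flrt2 stood at 40.3% to 45.2%. The part of neuronal RNA in these glial levels was not tested. In OPC-like nuclei Tenm1 (91.6%), Adgrl1 (95.3%) and Flrt3 (103%, at only 17.3 CPM) were close to the excitatory-like level, unlike Tenm2 (13.8%), Tenm3 (18.4%) and Tenm4. The 3 neuronal genes stood at 1.98% to 19.4% there, a range that holds these 3 teneurin values.

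Pooled excitatory-like and inhibitory-like nuclei were compared within each animal. By the exact sign-flip test, 8 of the 10 genes differed at an adjusted p under 0.05 over all genes, 6 higher in excitatory-like nuclei and 2 lower, where 46.5% of 17320 genes tested passed (21.3% higher and 25.3% lower). Adgrl2 showed the largest difference of the 10, at 212 ± 11.5 CPM in excitatory-like and 123 ± 22.7 CPM in inhibitory-like nuclei (0.80 ± 0.28 on the log2 scale, SD, n = 12). Adgrl1 (0.47 ± 0.14), Tenm4 (0.43 ± 0.20), Flrt2 (0.40 ± 0.28) and Tenm2 (0.22 ± 0.14) were also higher in the excitatory-like nuclei of all 12 animals, each with p = 0.000488, the smallest this exact test can give, and adjusted p = 0.00215. Flrt1 was higher in 11 of 12 animals (0.33 ± 0.24, adjusted p = 0.00358).

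Tenm1 and Flrt3 went the other way. Tenm1 was at 440 ± 42.9 CPM in excitatory-like and 529 ± 84.0 CPM in inhibitory-like nuclei and was lower in the excitatory-like nuclei of 10 of 12 animals (-0.26 ± 0.21, exact sign-flip p = 0.0044, adjusted p = 0.0123). Flrt3 was at 13.4, 16.1 and 22.8 CPM in excitatory-like and 15.9, 21.6 and 29.0 CPM in inhibitory-like nuclei, lower in 11 of 12 animals (-0.37 ± 0.31, adjusted p = 0.00625). Tenm3 (-0.22 ± 0.46, exact p = 0.124, adjusted p = 0.199) and Adgrl3 (-0.01 ± 0.12, exact p = 0.853) did not pass. The same 8 genes passed without striatal projection-like nuclei (47.0% of all genes passed) and without the 3 animals rich in inhibitory-like nuclei (39.4% of all genes), where the Tenm3 difference was -0.03 ± 0.36 (n = 9, exact p = 0.801). Without these 3 animals the differences of Adgrl2 (0.655) and Flrt2 (0.277) were smaller. Those of Tenm1 (-0.346) and Tenm4 (0.518) were larger in size, and the other genes that passed moved less. With nuclei of all sizes kept (no upper limit on depth and no limit on the log ratio), Tenm3 passed (-0.47, adjusted p = 0.00207), Adgrl3, at -0.01 with the limits, passed (0.09, adjusted p = 0.00541) and Flrt1 did not (0.06, adjusted p = 0.324), by the same exact test. Of all genes 68.5% passed then, 23.4% higher and 45.1% lower in excitatory-like nuclei, and the median difference over all genes was -0.12, against -0.03 with the limits. Tenm2 (0.05) and Flrt2 (0.25) passed there with smaller differences.

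**Figure D4:**
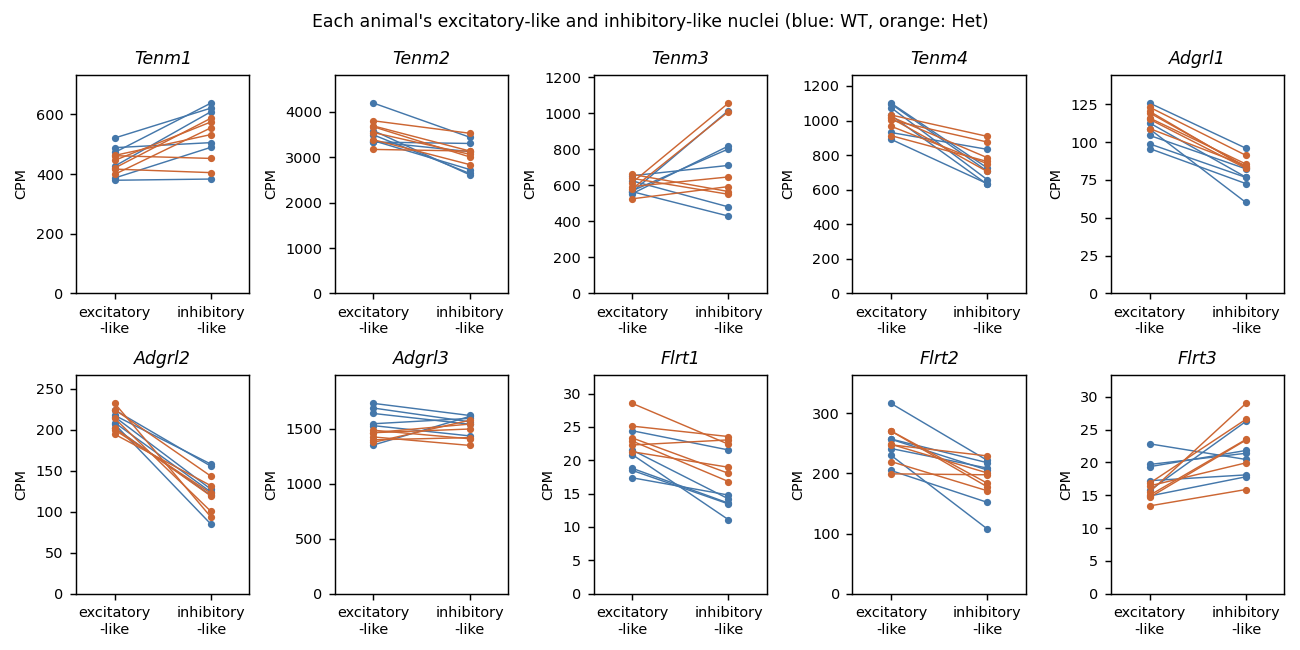
CPM of each gene in the excitatory-like and inhibitory-like nuclei of the same animal, joined by a line (WT blue, Het orange), on linear axes from 0. Lines fall toward inhibitory-like nuclei in all 12 animals for Tenm2, Tenm4, Adgrl1, Adgrl2 and Flrt2, and for Tenm3 they fan out to 430 to 1057 CPM.

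Some members ran together over the 18 classes. As a description over class means of log2(CPM + 1), Pearson's r was 0.896 for Tenm2 with Tenm4 (0.645 over the 14 neuronal classes), 0.82 for Tenm4 with Adgrl2 (0.71) and 0.80 for Tenm2 with Tenm3 (0.575). Adgrl3 and Flrt1 gave 0.739 over all classes and 0.275 over neuronal ones. Tenm4 and Flrt1 were lowest over all classes at -0.369 (0.263 over neuronal classes). Over the neuronal classes alone the lowest values were those of Flrt2, at -0.561 with Flrt3 (0.175 over all classes), -0.532 with Tenm2 (0.366) and -0.529 with Adgrl3 (0.287). These points share animals and libraries.

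Among 12908 other genes with at least 10 CPM in a class, the 3 most like each member over the 18 classes were as follows. Tenm2 was closest to Kifc2 (r = 0.909), Dlgap2, a postsynaptic scaffold gene (0.899), and Nphp4 (0.895). Tenm4 was closest to Plec (0.922), Rasgef1a (0.917) and Nphp4 (0.916), Tenm1 to Fam57b (0.812), Adcy3 (0.805) and C2cd5 (0.787), and Tenm3 to Gm38348 and Txnl1 (0.873 each) and Psma3 (0.835). Of the receptors, Adgrl2 was closest to Drp2 (0.919), Cacna1i, a T-type calcium channel gene (0.903), and Gm28578 (0.894). Adgrl1 was closest to Per2 (0.885), Ncan (0.881) and Sertad2 (0.874), and Adgrl3 to Gm43594 (0.855), Spire2 (0.827) and Pkia (0.814). Flrt2 was closest to Gm48015 (0.908), Hectd2 (0.896) and Sel1l3 (0.866), Flrt1 to S1pr2 (0.78), Gm47592 (0.772) and Gm49125 (0.771), and Flrt3 to Gabrg3, a GABA-A receptor subunit gene (0.799), Nipal2 (0.762) and Nsg1 (0.759). Gm43594 lies inside Adgrl3 and Gm48015 inside Flrt2, each on the strand of the member, so the counts of either gene and unspliced RNA of the member cannot be told apart. For Flrt3 and its host gene Macrod2 the value was 0.495, and for Flrt1 and Macrod1 it was -0.461.

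Between Het and WT no member passed the test in any class. Of 151 tests of members in the 20 classes, 0 were called by edgeR's quasi-likelihood test (adjusted p under 0.05 over all genes of the class and an absolute log2 fold change over 0.2), where 0.0792% of 80839 gene tests were called. By class, 0.179% of genes were called in excitatory-like, 0.131% in inhibitory-like, 0.267% in L6 CT-like, 0.154% in L6 IT-like, 0.0325% in Sst-like, 0.0209% in L2/3 IT-like and 0.0184% in L4/5 IT-like nuclei, and 0.0% in the others. The smallest adjusted p was 0.417, and 16 member tests (10.6%) had an unadjusted p under 0.05 against 6.2% of all gene tests. DESeq2 called 0 of 200, with 15 at an unadjusted p under 0.05, and no DESeq2 share over all genes is given beside these counts. The other 49 of the 200 combinations of member and class, mostly of Flrt1 and Flrt3, had too few counts for the edgeR test: outside the pooled neuronal classes Flrt1 was tested only in L6 CT-like and Flrt3 only in L5 NP-like nuclei. Over all nuclei 0 of 10 members were called by edgeR, where 0.0% of 16894 genes were, and 2 members had an unadjusted p under 0.05; DESeq2 called 0 as well, with 2 at that level.

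Over all nuclei the member with the smallest p was Flrt1. WT animals held 16.0, 17.1 and 20.9 CPM (lowest, median and highest of 6) and Het animals 19.6, 21.4 and 25.5 CPM, so that WT male 2 alone overlapped with the Het range. The log2 fold change was 0.29 (95% interval 0.12 to 0.46, edgeR adjusted p = 0.411). Values were 0.25 in excitatory-like (adjusted p = 0.483) and 0.40 in inhibitory-like nuclei (adjusted p = 0.754), the latter 0.26 without striatal projection-like nuclei and 0.62 without the 3 animals rich in inhibitory-like nuclei (adjusted p = 0.184).

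Adgrl3 over all nuclei stood at 1341, 1524 and 1643 CPM in WT and 1341, 1387 and 1426 CPM in Het, and the genotypes overlapped (-0.16, 95% interval -0.29 to -0.03, edgeR adjusted p = 0.758). In excitatory-like nuclei it was at 1351, 1591 and 1730 CPM in WT and 1376, 1444 and 1485 CPM in Het (-0.15, interval -0.27 to -0.04, edgeR adjusted p = 0.417). Over the 18 classes, which are cut from the same 12 animals, its log2 fold change ranged from -0.49 in microglia-like to -0.03 in OPC-like nuclei. The largest class mean, that of OPC-like nuclei, thus had a difference of -0.03 with an interval of -0.23 to 0.17.

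The genotypes did not overlap in 1 of the 151 member tests in the 20 classes, where 0.501% of the 80839 gene tests did not overlap. The member share was thus near that of all genes. The 1 test was that of Adgrl3 in L5 NP-like nuclei. Adgrl3 there was at 1744, 1828 and 1972 CPM in WT and 1520, 1614 and 1669 CPM in Het (-0.23, 95% interval -0.38 to -0.08, edgeR adjusted p = 0.635). It was not called, and over 21 alternatives, none of which called it, the value ranged from -0.25 to -0.14, the latter under the stricter minimum of marker UMIs. In the same class Tenm2, at its highest there, had an interval that included 0, and Flrt2 had -0.28 (edgeR adjusted p = 0.823) and Flrt3 -0.61 (adjusted p = 0.85). The alternatives of Flrt2 there ranged from -0.56 to -0.09 and those of Flrt3 from -0.86 to -0.18, and both were smallest in size with the depth and log ratio limits lifted together.

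The remaining differences with an unadjusted p under 0.05 were spread over classes. Tenm3 in L6b-like nuclei was at 483, 717 and 775 CPM in 3 WT animals and 181, 356 and 507 CPM in 5 Het animals (-0.94, edgeR adjusted p = 0.716). Over 16 alternatives this value ranged from -1.47 (edgeR adjusted p = 0.053), without the 3 animals rich in inhibitory-like nuclei, to -0.26 (adjusted p = 0.701), with the upper depth limits and the limit on the log ratio of genes to UMIs lifted together. The former fit held 2 WT and 3 Het animals, under the minimum of 3 per genotype, and the latter 6 and 6. Adgrl2 in Sst-like nuclei was at 147, 179 and 315 CPM in WT and 127, 147 and 177 CPM in Het (-0.48, edgeR adjusted p = 0.763), and its alternatives ranged from -0.97 to -0.25. Tenm1 in astrocyte-like nuclei, on 147 counts over 12 animals, gave -0.96 (edgeR adjusted p = 0.707), and Myt1l in the same nuclei gave -1.05 (adjusted p = 0.707). Tenm2 there stood at -1.10 without an unadjusted p under 0.05. Values were below 0 for 5 of 6 members in astrocyte-like, 7 of 8 in oligodendrocyte-like, 3 of 4 in OPC-like and 3 of 6 in microglia-like nuclei. Medians over all genes in these classes lay between -0.01 and 0.01. The part of neuronal RNA in these values was not tested. Tenm4 was 0.18 in inhibitory-like nuclei (edgeR adjusted p = 0.867), and 0.07 without striatal projection-like nuclei, in which it stood at 0.27 (adjusted p = 0.963). Tenm4 in L6b-like nuclei (-0.83), Adgrl3 in L6 CT-like (-0.15) and microglia-like nuclei (-0.49), Flrt2 in L4/5 IT-like nuclei (-0.26) and Flrt3 in excitatory-like nuclei (-0.30) completed the 16. The Tenm4 value in L6b-like nuclei was -0.24 without WT male 2 and -0.02 with the depth and log ratio limits lifted together. The alternatives of Flrt2 ranged from -0.39 to -0.08 in L4/5 IT-like nuclei. In microglia-like nuclei the neuronal transcripts given above stand beside the value.

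For the members with most counts the intervals bound the size of any difference. In excitatory-like nuclei the 95% intervals of the teneurins and latrophilins lay between -0.27 and 0.24 log2 units, as drawn in the plot of genotype differences. In inhibitory-like nuclei Tenm3 had the widest interval among the teneurins, and its value of 0.04 (interval -0.52 to 0.61) was -0.17 without the 3 animals rich in inhibitory-like nuclei (edgeR adjusted p = 0.928). Within single classes Flrt1 and Flrt3 had too few counts to be tested, apart from Flrt1 in L6 CT-like (0.09) and Flrt3 in L5 NP-like nuclei (-0.61). Because sums per animal were scaled to CPM within a class, fewer nuclei of a class do not lower a value, but in values over all nuclei and over the pooled excitatory-like or inhibitory-like nuclei fewer cells of a type and less RNA per cell cannot be told apart. Striatal projection-like nuclei made up 5.47% to 11.85% of inhibitory-like nuclei in the 6 WT animals (mean 7.80%) and 9.66% to 18.6% in the 6 Het animals (mean 14.0%).

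**Figure D5:**
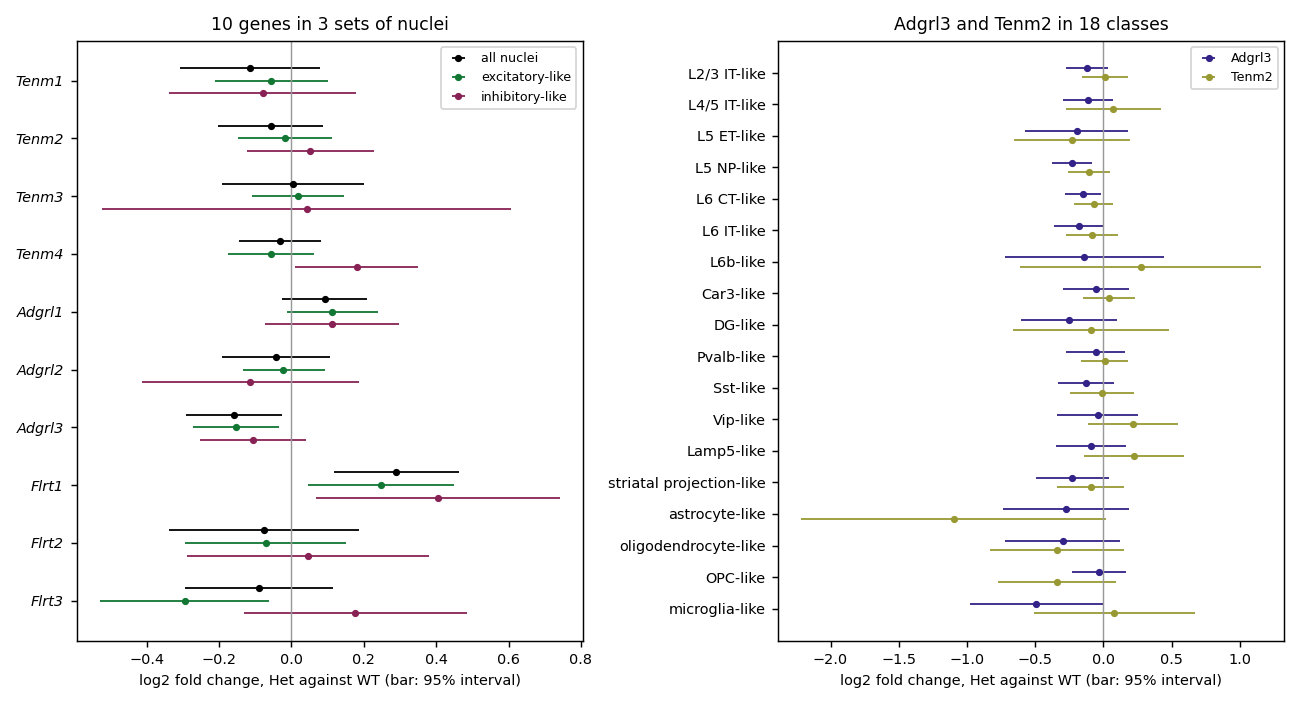
Log2 fold change of Het against WT with its 95% interval (edgeR), for the 10 genes over all, excitatory-like and inhibitory-like nuclei (left) and for Adgrl3 and Tenm2 in 18 classes (right), where 0 marks no difference. Flrt1 over all nuclei lies at 0.29 and Adgrl3 at -0.16, and no value shown passed the adjusted test.

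Sex was tested because Tenm1 is X-linked. Over all nuclei 0 of 10 members differed between females and males by edgeR with genotype in the model, where 0.0626% of 17570 genes were called, and 0 members had an unadjusted p under 0.05 by edgeR or DESeq2, which called 0 as well. Tenm1 gave a female minus male log2 fold change of -0.03 ± 0.09 (SE, edgeR adjusted p = 0.999). The largest of the 10 was -0.12 ± 0.12 for Flrt2. For the interaction of sex and genotype 0 members were called, where 0.0% of 17965 genes were, and again 0 members had an unadjusted p under 0.05 by either tool.

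The list of partner genes held 21 genes: UNC5 receptors, other latrophilin ligands, scaffolds that bind latrophilins, FLRT receptor partners, a latrophilin relative, a teneurin partner and G protein subunits. Of 277 tests of these genes in the 20 classes, 0 were called higher and 1 lower in Het. The 1 call was Unc5c, a netrin receptor of the family that FLRTs bind, in L6 IT-like nuclei, the class in which Tenm1 and Tenm3 were highest. Unc5c there was at 663, 926 and 1090 CPM in WT and 486, 610 and 769 CPM in Het (-0.61 ± 0.12 SE, edgeR adjusted p = 0.0141), in a class where 0.154% of 3253 genes were called. The call held in 15 of 21 alternatives, with adjusted p from 0.000852 to 0.445 and the log2 fold change from -0.81 to -0.34. In the Car3-like class the value was -0.52 (edgeR adjusted p = 0.195), and in L6 CT-like nuclei -0.67 (adjusted p = 0.64), neither of which passed. The genotype difference of Tenm1 and Tenm3 in L6 IT-like nuclei did not pass either.

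By group, 0 of 3 other UNC5 receptors, 0 of 4 other latrophilin ligands, 0 of 4 scaffolds, 0 of 3 FLRT receptor partners and 0 of 4 G protein subunits were called in a class, with 26 of the 277 tests at an unadjusted p under 0.05, where 6.2% of all gene tests were. Over all nuclei 0 of 21 were called by edgeR, with 8 at an unadjusted p under 0.05, where 5.96% of all genes were. Nrxn3, which encodes a presynaptic neurexin, was at 6396 ± 517 CPM over all nuclei (SD, n = 12) and was highest in Vip-like nuclei, the neuronal class in which Adgrl2 was lowest. Unc5d, the FLRT2 receptor, was at 702 ± 75.2 CPM and highest in L4/5 IT-like nuclei (1844 CPM), where Flrt2 also stood high (311 CPM). Unc5c was highest in Lamp5-like nuclei (3220 CPM). Adgrl4, the latrophilin relative of blood vessels, was at 2.93 ± 1.85 CPM and had too few counts to be tested in any class.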

How the data were processed

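Processed files of 12 single-nucleus RNA-seq samples were used, 1 per mouse. The deposited matrices hold expected counts per gene and barcode, made by the authors with the ScaleRna workflow on mm10, and 7.4% of entries are fractions. The study describes CellFinder as a method of cell calling, used to remove barcodes linked to ambient RNA. The submitters' processing notes also name Seurat 4.3.0 and DESeq2 1.38.3. No labels per nucleus were used here.

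Nuclei were kept at 800 to 6000 UMIs, 300 to 3000 genes, at most 1% mitochondrial counts and a log-scale gene to UMI ratio of 0.9 or more, the limits of the study, which left 34860 of 78743 barcodes (44.3%). Nearly all of the loss came from the upper limits and the log ratio. Without these limits 78722 barcodes passed, and 33586 barcodes lay over 6000 UMIs. The totals of 34860 and 78743 are both below the number of nuclei the study states for this age, so the nuclei used here are not its set. The files held no barcode under 1500 UMIs. A broad class needed at least 2 marker UMIs and 2 times those of the next class. In place of a doublet caller, 1254 nuclei (3.6%) with markers of 2 broad classes were left out. Subclasses needed a marker score of at least 1, a margin of 0.5 and 2 marker UMIs. CA1-like, Sncg-like and vascular or meningeal nuclei were not compared, for too few nuclei or markers.

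Counts were summed per animal and class (at least 10 nuclei per animal, 3 animals per genotype), rounded and tested with edgeR 4.0.16 (quasi-likelihood, TMM, filterByExpr, robust) in R 4.3.3, with DESeq2 1.42.0 as an alternative. An adjusted p (Benjamini-Hochberg) under 0.05 with an absolute log2 fold change over 0.2 was a call. Classes were compared by exact sign flips of log2(CPM + 1) over animals in Python 3.11.15. For excitatory against inhibitory the p was adjusted over all genes with at least 1 CPM, where an adjustment over the 10 members had been planned. Tests were checked on simulated data. The likeness of genes to a member was Pearson's r of class means among genes with at least 10 CPM in a class.

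The text names all 10 members, the partner genes called in a class and the 3 genes most like each member; partner genes with the largest fold changes were to be named in the class with most members called, and no class had one. Values of some single partner and marker genes are not reported here. The members and lists were chosen with earlier results of these data known. Levels of partner genes over all nuclei and the 3 animals described apart were chosen after their values were seen. Replicates are separate mice.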

Additional observations from a re-analysis of the deposited data

Results flagged for a closer look

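Levels in single animals stood apart from the rest of their genotype in 3 of 60 groups of 6 animals (the 10 genes in all, excitatory-like and inhibitory-like nuclei of each genotype), by a gap to the nearest animal, as a share of the range, above Dixon's critical value for 6 samples. Chance gives about 1 in 20, so 3 of 60 is the number chance gives. Tenm2 in excitatory-like nuclei of WT male 3 was at 4196 CPM, and the other 5 WT animals held 3336 to 3587 CPM. Adgrl1 in inhibitory-like nuclei of Het male 2 was at 91.3 CPM, with the other Het animals at 82.7 to 85.5 CPM. Flrt1 in inhibitory-like nuclei of WT male 2 was at 21.5 CPM, with the other WT animals at 11.1 to 14.8 CPM.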

How the results depend on the processing

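No member was called for Het against WT under any alternative run: all 847 alternatives of 41 single results stayed uncalled, with a smallest adjusted p of 0.053 (Tenm3 in L6b-like nuclei, on 2 WT and 3 Het animals), and none of the 18 results with an unadjusted p under 0.05 changed sign. The count of all genes called moved more than the members did. In the 20 classes it was 64, and 176 by DESeq2, 318 with no filter on low counts, 195 without the upper limits on depth and the limit on the log ratio, 127 without the 3 animals rich in inhibitory-like nuclei and 25 to 112 when leaving out 1 animal. Over all nuclei it was 0, and 31 by DESeq2, 28 with no filter, 6 without these limits and 0 to 4 when leaving out 1 animal (4 without WT female 2 and 2 without Het male 1). In the classes, leaving out WT female 3 or Het female 1 gave 25, WT male 3 gave 38, Het male 1 gave 39 and WT male 2 gave 112. The cause was not tested. With the p adjusted over neighbouring classes alone 0 of 170 differed, 18 without these limits and 5 with mixed nuclei kept, and no share over all genes was computed for these. With the p adjusted over all genes and pairs, 8 of the 170 and 677 of all 1530 pairs passed. Excitatory against inhibitory gave 8 of 10 genes (46.5% of all genes), and 9 without these limits (68.5% of all genes). In the latter Tenm3 passed at -0.47, Adgrl3 passed at 0.09 (-0.01 and not passing with the limits) and Flrt1 fell to 0.06. Under the stricter minimum of marker UMIs, L6 IT-like nuclei held 830 CPM of Tenm1 and 1449 CPM of Tenm3. Tenm1 was then still highest in L6 IT-like nuclei but in L6b-like nuclei without these limits, and Adgrl1 was highest in astrocyte-like nuclei under the stricter minimum.

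The labels give the same replicate numbers in each sex and genotype. Deviations of same-numbered animals correlated at -0.324 to 0.039, and 1 of 6 pairs matched best with its own number. The numbers were not used as pairs in the main test, and 6 pairs are too few to show whether they pair animals. With the replicate block 0 members were called, and the count of all genes was 65 in the 20 classes and 0 over all nuclei.

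The alternatives without striatal projection-like nuclei and without the 3 animals, and the test of all pairs of classes, were chosen after seeing the data. Fits of L6b-like nuclei that leave out 1 of the 3 WT animals hold 2. Under the stricter minimum 17 classes had enough animals, and some fits that leave out 1 animal were not possible in the smallest classes. Depth limits Flrt1 and Flrt3, and Adgrl2 in Vip-like and OPC-like nuclei.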
